A study of Mus musculus with 6 samples.

Results

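Distal intron regions are the stretches of chromatin that lie inside a gene's intron and more than 10 kb from the nearest transcription start site (TSS). They were taken from the 4 annotated region tables of a CUT&Tag study of mouse primary cardiac fibroblasts as the regions whose annotation begins with an intron and whose distance to a TSS, in either direction, is above 10000 bp. For TGF-b against NC this took 49811 of 170890 regions of the T set table and 13594 of 52723 of the S set table. For siRNA plus TGF-b against TGF-b it took 52268 of 180118 and 13189 of 52579. Over the 4 tables they made up 128862 of 456310 listed regions, or 28.2%. The rule used position only, so the densities and their ratios are free to differ from those of other regions.

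The series holds 6 CUT&Tag libraries, a T set and an S set with 3 libraries each. In both sets the cells were heart fibroblasts labelled NC (the control), TGF-b, or TGF-b together with an siRNA, which the labels name SiTAZ in the T set and SiSRF in the S set. The study describes TAZ and SRF CUT&Tag, so the T set is taken here as TAZ and the S set as SRF, but the antibody of a library is not given by its label. Its text speaks of siRNA against Piezo2 where the labels name TAZ and SRF, and the design text of the series speaks of Tet3 knockout, which no label carries, so the siRNA target is left here as labelled. Each group is 1 library with no replicate, and nothing says how many cultures or animals it came from. No test between conditions is therefore possible, and each difference is one between 2 libraries.

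CUT&Tag cuts and tags DNA next to a chromatin-bound protein, so that many reads at a place can mean that the protein, or open chromatin that the enzyme reaches, was there. TAZ has no DNA-binding domain of its own and is brought to DNA by TEAD factors, which are known to occupy distal enhancers far more often than promoters. SRF binds CArG boxes near genes of the actin cytoskeleton and is activated by MRTF cofactors when monomeric actin falls. Long introns hold many enhancers, and an enhancer inside one gene can act on that gene or on a neighbour. For that reason both names are given here where they differ, the host gene whose intron holds the region and the gene of the nearest TSS. The nearest TSS belonged to the host gene for 66.0% to 67.9% of the distal intron regions called in a library.

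The level of a region is its normalized read density, in reads per kb over a window of 2 kb after the authors rescaled the 2 libraries of a table along a straight line. Whole reads could be read back from these densities, and the text gives them as reads in the window, before any rescaling. Ratios are log2 ratios of the rescaled densities, later condition over earlier, and intervals are 95% Wilson limits that cover counting error only. The total reads of a library are not in the tables, so reads can be compared between regions of 1 library, whereas between libraries only the rescaled ratio can. Positions are those of the tables, whose gene coordinates are those of GRCm39.

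Distal intron regions were shallow in every library. Those called in the NC, TGF-b and siRNA libraries of the T set numbered 37233, 14421 and 39285, with medians of 10, 9 and 7 reads. In the S set they numbered 7630, 6088 and 7234, with medians of 9, 12 and 9 reads. Promoter regions of the same libraries had medians of 17, 24 and 12 reads in the T set and of 12, 21 and 18 reads in the S set, so promoters were deeper in each of the 6 libraries. The gap was widest in the T set TGF-b library. In the TGF-b libraries 9.94% of T set and 10.2% of S set distal intron regions had over 20 reads, against 58.8% and 50.8% of promoters and 18.2% and 17.2% of all regions. Low depth was common to the tables, since the medians over all regions were 10, 10 and 7 reads in the T set and 10, 13 and 10 in the S set.

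The T set siRNA library gave more distal intron regions than the TGF-b library, and so did its NC library. The share that distal intron regions took of all called regions was nearly fixed in the T set, at 29.3%, 27.1% and 29.2% for NC, TGF-b and siRNA with TGF-b. For the S set it was 27.3%, 23.5% and 25.2%. In both sets the TGF-b library had the lowest share.

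Under TGF-b, densities of the T set were lower than in NC at most distal intron regions. Their median log2 ratio was -0.77, with quartiles of -1.84 and 0.37. At least 2-fold lower were 22002 regions, or 44.2% (43.7% to 44.6%), and at least 2-fold higher were 8374, or 16.8% (16.5% to 17.1%). Over all the regions listed there, 42.1% were at least 2-fold lower and 17.3% at least 2-fold higher, with a median of -0.65, so the distal intron regions moved with the table as a whole. With ratios centred on that median, 28.6% of the distal intron regions were at least 2-fold lower and 25.1% at least 2-fold higher. Promoters stood apart from both, with a median of -0.01, 23.9% at least 2-fold lower and 20.7% at least 2-fold higher.

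In the S set the same comparison gave a smaller difference in the same direction. The median log2 ratio of its distal intron regions was -0.34, and 29.6% (28.9% to 30.4%) were at least 2-fold lower while 16.0% (15.4% to 16.7%) were at least 2-fold higher. Over all S set regions 26.7% were at least 2-fold lower and 17.4% at least 2-fold higher, with a median of -0.20, and the promoter median was 0.27. The sign of the S set median rests on the authors' rescaling: from the reads as counted, without it, the median was 0.23, with 17.4% at least 2-fold lower and 29.4% at least 2-fold higher. Among the 124 distal intron regions called in both libraries 8.87% were lower and 0.807% higher. The share higher was 9.02% above the median density and 10.1% when low counts were raised to a floor of 3 reads.

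With siRNA and TGF-b against TGF-b alone, the medians of the 2 sets had opposite signs, which centring on all regions ended, with 0.076 in the T set and 0.026 for the S set. T set distal intron regions had a median log2 ratio of 1.05, with 51.6% (51.2% to 52.0%) higher by at least 2-fold and 15.6% (15.3% to 15.9%) lower by as much. Over all T set regions 49.7% were at least 2-fold higher and 16.2% at least 2-fold lower, with a median of 0.97. Without the authors' line the median of the T set distal intron regions was 0.59 and 20.4% were lower, the lower share became 6.91% when low counts were raised to a floor of 3 reads, and among regions called in both libraries the median was 0.14, with 18.4% higher and 10.3% lower. Centred on the median of all regions, 30.3% of the T set distal intron regions were higher and 27.0% lower. S set distal intron regions had a median of -0.19, with 16.5% (15.9% to 17.2%) higher by at least 2-fold and 27.7% (26.9% to 28.4%) lower by as much, against 15.1% and 27.8% of all S set regions, whose median was -0.21. Centred in the same way, 22.1% were higher and 22.9% lower. Promoter medians were close to 0 in both sets, at 0.11 and 0.12. In neither set did the share of distal intron regions past 2-fold differ from that of all regions by more than 2 percentage points in this comparison. The 2 comparisons of a set use the same TGF-b library, so a fall followed by a rise, as in the T set, is not independent between them.

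**Figure D1:**
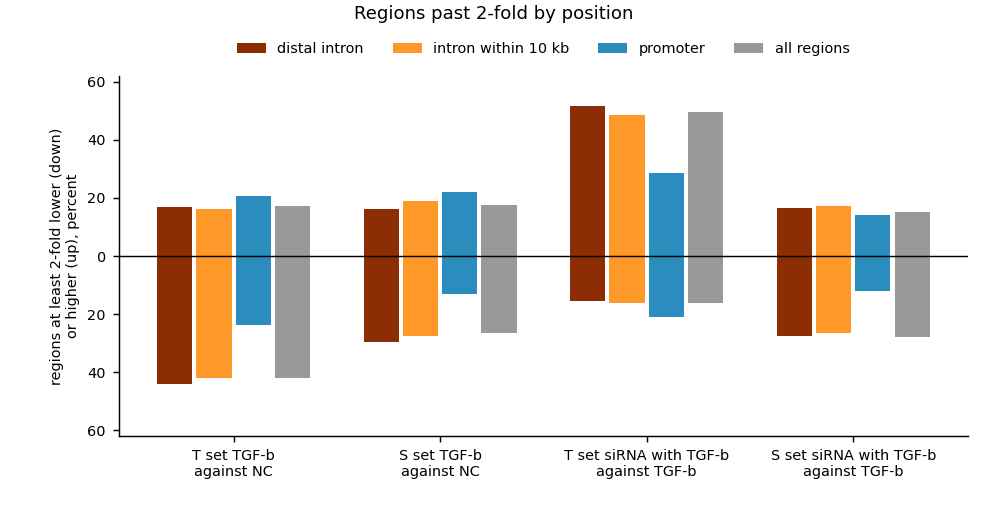
Share of regions, in percent, at least 2-fold higher (up) or at least 2-fold lower (down) in each of the 4 comparisons, for distal intron regions, intron regions within 10 kb of a TSS, promoters and all regions of the table. Distal intron bars lie next to those of all regions in each comparison (44.2% and 42.1% lower in the T set under TGF-b), and promoter bars are shorter in the direction in which most regions moved.

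Position within the class made little difference in the T set. From 10 to 25 kb, 25 to 50 kb, 50 to 100 kb and beyond 100 kb from a TSS, the T set medians under TGF-b were -0.74, -0.80, -0.75 and -0.80. For siRNA with TGF-b they were 1.03, 1.03, 1.11 and 1.18. Regions in a first intron had T set medians of -0.77 and 1.04 in the 2 comparisons, and those in a later intron -0.77 and 1.09. Regions upstream of the nearest TSS had medians of -0.75 and 1.04, and those downstream -0.78 and 1.10. In the S set the medians for siRNA with TGF-b ran from -0.12 at 10 to 25 kb to -0.31 beyond 100 kb. The X chromosome differed more: under TGF-b its 948 T set regions had a median of -1.26 and its 276 S set regions -1.06, and with siRNA and TGF-b its 1075 T set regions had 1.76 and its 207 S set regions 0.13.

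Which library a region was called in went with its ratio far more than its position did. T set regions called in NC alone had a median of -1.30 under TGF-b, those called in TGF-b alone 1.48, and the 1843 called in both -0.25. For siRNA with TGF-b, T set regions called in TGF-b alone had a median of -1.54, those called in the siRNA library alone 1.67, and the 1438 called in both 0.14. In the S set the regions called in both libraries were few, 124 and 133, with medians of -0.31 and -0.16. A region called in 1 library was chosen for reads in that library, so the sign of its ratio largely follows the call. In addition, 51.5% of T set and 29.0% of S set distal intron regions had 3 or fewer reads in at least 1 library of the TGF-b comparison, and 59.8% and 29.3% had so in the siRNA comparison.

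Deep regions were looked at apart from the rest. Of the T set regions with 50 or more reads over NC and TGF-b together, 1785 were distal intron regions, with medians of 41 reads in NC and 25 in TGF-b. Their median log2 ratio was -0.67, with 37.0% at least 2-fold lower and 3.59% at least 2-fold higher. All 10797 regions of that depth had a median of -0.18, with 22.2% lower and 10.5% higher. The 3548 promoters of that depth had medians of 34 reads in NC and 42 in TGF-b and a median log2 ratio of 0.30. Intron regions within 10 kb lay between, at -0.35.

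The same order held among deep regions called in both libraries, whose sign no single call fixes. There the 735 distal intron regions had a median of -0.43, the 569 nearer intron regions -0.33 and the 2020 promoters 0.33. With siRNA and TGF-b against TGF-b, the order turned: the 861 deep distal intron regions of the T set had a median of 0.26, the 964 nearer intron regions 0.11 and the 2824 promoters -0.25. Among those called in both libraries the medians were 0.17, 0.05 and -0.19. The comparisons share the TGF-b library, so the 2 orders are not independent of each other.

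The S set had few deep distal intron regions. With 50 or more reads over NC and TGF-b there were 105, with a median of 0.03 against 0.54 for the 427 promoters of that depth. With 50 or more reads over TGF-b and the siRNA library there were 102, with a median of -0.46 against 0.11 for 1044 promoters. Distal intron regions thus lay below promoters in both S set comparisons, whereas in the T set they lay below promoters in the first comparison and above them in the second.

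**Figure D2:**
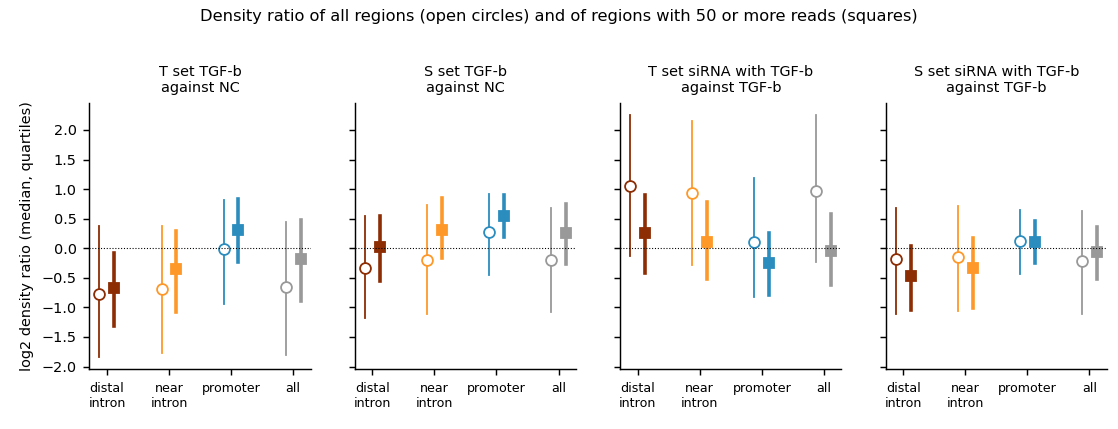
Median log2 density ratio with its quartiles (vertical lines) for distal intron regions, nearer intron regions, promoters and all regions in the 4 comparisons. Open circles are all regions of a kind and squares those with 50 or more reads over both libraries. Among the deep T set regions the distal intron median is -0.67 under TGF-b beside a promoter median of 0.30, and 0.26 with siRNA and TGF-b beside -0.25.

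A handful of places were dense whichever set or treatment was looked at. In 341 places a distal intron region listed in both tables of the S set overlapped one listed in both tables of the T set, and 8 of these had 50 or more reads in each of the 6 libraries. They lay in introns of 7 genes. Whether the reads at these places came from a bound protein was not tested.

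The densest lay in intron 2 of 2700054A10Rik, a gene with no established function, at chr17:13770924-13773461 (S set limits). It held 1369, 866 and 1707 reads in the NC, TGF-b and siRNA libraries of the T set and 1436, 1111 and 1628 in those of the S set. A second place in intron 1 of the same gene, chr17:13810571-13811831, held 105, 66 and 168 reads in the T set and 228, 177 and 165 in the S set. Rescaled, the first place had T set log2 ratios of -0.97 (-1.09 to -0.85) for TGF-b against NC and 1.51 (1.39 to 1.63) for siRNA with TGF-b against TGF-b, and S set ratios of -0.76 (-0.88 to -0.65) and 0.35 (0.24 to 0.46). It was thus lowest in TGF-b in both sets.

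Intron 1 of Smo, the membrane protein that passes on the Hedgehog signal, held 631, 440 and 700 reads in the T set and 649, 570 and 664 in the S set at chr6:29747876-29749037. Intron 3 of Chl1, an adhesion molecule of the L1 family, held 366, 368 and 190 reads in the T set and 1080, 644 and 892 in the S set at chr6:103626105-103626247. Intron 3 of Actr3b, a relative of the Arp3 subunit of the actin-nucleating Arp2/3 complex, held 142, 203 and 227 reads in the T set and 243, 326 and 246 in the S set. Smo fell under TGF-b in both sets, with log2 ratios of -0.76 (-0.94 to -0.59) in the T set and -0.61 (-0.77 to -0.45) in the S set. Chl1 fell in the S set, at -1.15 (-1.29 to -1.01), while its T set interval reached 0, at -0.20 (-0.41 to 0.01).

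The remaining 3 were in Rora, which encodes a nuclear receptor, in A530065N20Rik and in intron 5 of Mindy2, whose nearest TSS is that of Gm10642. Their reads ran from 58 to 157 over the 6 libraries. Rora, the most even of them, held 72, 89 and 71 reads in the T set and 86, 107 and 94 in the S set. Of the 341 places 13 had at least 20 reads in every library and 54 at least 10.

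Of the 60 densest in the T set, taken once per 2 kb from the regions listed in both tables, 30 had no S set region within 1 kb. The 10 densest genes of the TGF-b table were 2700054A10Rik, Smo, Chl1, Actr3b, Prkci, Mical2, Mcc, Ripor2, Tns1 and Tns3, and in the siRNA table A530065N20Rik, Gm10642 and Myh9 took the place of Mical2, Tns1 and Tns3. The following 9 of those 30 were picked after their values were seen and were all without an S set region within 1 kb.

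Mical2, which oxidises actin and so favours MRTF and SRF activity, held 133, 95 and 52 reads in NC, TGF-b and siRNA at intron 3, chr7:111898228-111898500. Tns1, a tensin that ties integrins to actin, held 123, 79 and 34 at intron 3, chr1:74088627-74088952. Tns3, another tensin, held 127, 74 and 24 at intron 20, chr11:8413909-8414108. Rescaled, Tns3 had log2 ratios of -0.86 (-1.28 to -0.46) for TGF-b against NC and -1.10 (-1.80 to -0.49) for siRNA with TGF-b against TGF-b, and Tns1 had -0.72 (-1.14 to -0.32) and -0.71 (-1.31 to -0.16). For Mical2 they were -0.58 (-0.97 to -0.21) and -0.37 (-0.87 to 0.10), so the second interval spans 0. Over all T set distal intron regions the medians were -0.77 and 1.05.

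Vgll4, which competes with TAZ for TEAD, held 72, 102 and 59 reads at intron 2, chr6:114865966-114866416. Myh9, the heavy chain of non-muscle myosin IIA, held 69, 92 and 79 at intron 3, chr15:77682949-77683340. Bahcc1, a chromatin protein, held 80, 104 and 69 at intron 2. All 6 intervals of these 3 places spanned 0, and Vgll4 had ratios of 0.42 (-0.01 to 0.86) and -0.29 (-0.76 to 0.16).

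Creb3l1, a transcription factor held in the endoplasmic reticulum and linked to collagen secretion, held 98, 74 and 19 reads at intron 1, with log2 ratios of -0.48 (-0.92 to -0.05) and -1.43 (-2.20 to -0.76). Wwc2, of the WWC family upstream of the Hippo kinases, held 104, 54 and 26 at intron 1, with -1.0 (-1.48 to -0.54) and -0.55 (-1.24 to 0.09). Both intervals under TGF-b lay below 0, where the median over all T set distal intron regions was -0.77. Ergic1, of the secretory pathway, went the other way, with 53, 107 and 68 reads and a log2 ratio of 0.93 (0.47 to 1.42).

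Over the 60 densest T set regions, 9 were at least 2-fold lower and 1 at least 2-fold higher under TGF-b, and 11 were at least 2-fold lower and 6 higher with siRNA and TGF-b against TGF-b. Over all T set regions 42.1% were lower and 17.3% higher in the first comparison, and 16.2% and 49.7% in the second. The median reads of the 60 were 83.5 in NC, 69 in TGF-b and 37 with siRNA. A ratio below 0 was found at 41 of the 60 with siRNA and TGF-b, whereas the median over all T set distal intron regions was 1.05. The 60 were ranked by their density in NC and TGF-b, however, which favours places with more reads in TGF-b than in the siRNA library, so this contrast is a description of the choice as well as of the data. Runx2, a transcription factor of bone and of activated fibroblasts, was among them, with 95, 59 and 13 reads at intron 5 and a ratio of -1.62 (-2.56 to -0.85), and its nearest TSS is that of Runx2os3. Nmt1, an N-myristoyltransferase, held 51, 91 and 13 reads at intron 3, with ratios of 0.76 (0.28 to 1.27) and -2.24 (-3.16 to -1.50).

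In the S set 39 of the 60 densest places had a T set region within 1 kb. Beyond the places dense in all libraries, its densest genes by the same rule were Dlgap2, D130079A08Rik, Prune2 and Gtpbp4, the last being the nearest TSS to an intron of Gm36264. Dlgap2, a scaffold of the postsynaptic density, held 53, 78 and 67 reads in NC, TGF-b and siRNA at chr8:14356734-14357341. Prune2 held 32, 56 and 40 reads. Neither had an interval clear of 0 in either comparison. At the Gm36264 region, where 26, 71 and 51 reads lay, the ratio under TGF-b was 0.89 (0.29 to 1.57) on the log2 scale, clear of 0.

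Other dense S set places had no T set region within 1 kb. Ulk4, which encodes a pseudokinase, held 14, 76 and 19 reads at intron 19, chr9:121022131-121022324, with log2 ratios of 1.83 (1.10 to 2.72) and -1.93 (-2.70 to -1.26). A second Ulk4 region in that intron, chr9:121024639-121024805, held 16, 63 and 17 reads, with 1.38 (0.66 to 2.23) and -1.80 (-2.63 to -1.10). Shank2, another synaptic scaffold, held 25, 57 and 19 reads, with 0.63 (-0.01 to 1.34) and -1.51 (-2.30 to -0.82). The Ulk4 and Shank2 regions were called in the TGF-b library alone, which both comparisons share. A higher ratio followed by a lower one thus largely follows that call. Over the 60 densest S set regions 5 were at least 2-fold higher and 9 lower under TGF-b, and 2 were higher and 19 lower with siRNA and TGF-b, under the same ranking by NC and TGF-b, where all S set regions gave 17.4% and 26.7%, then 15.1% and 27.8%.

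**Figure D3:**
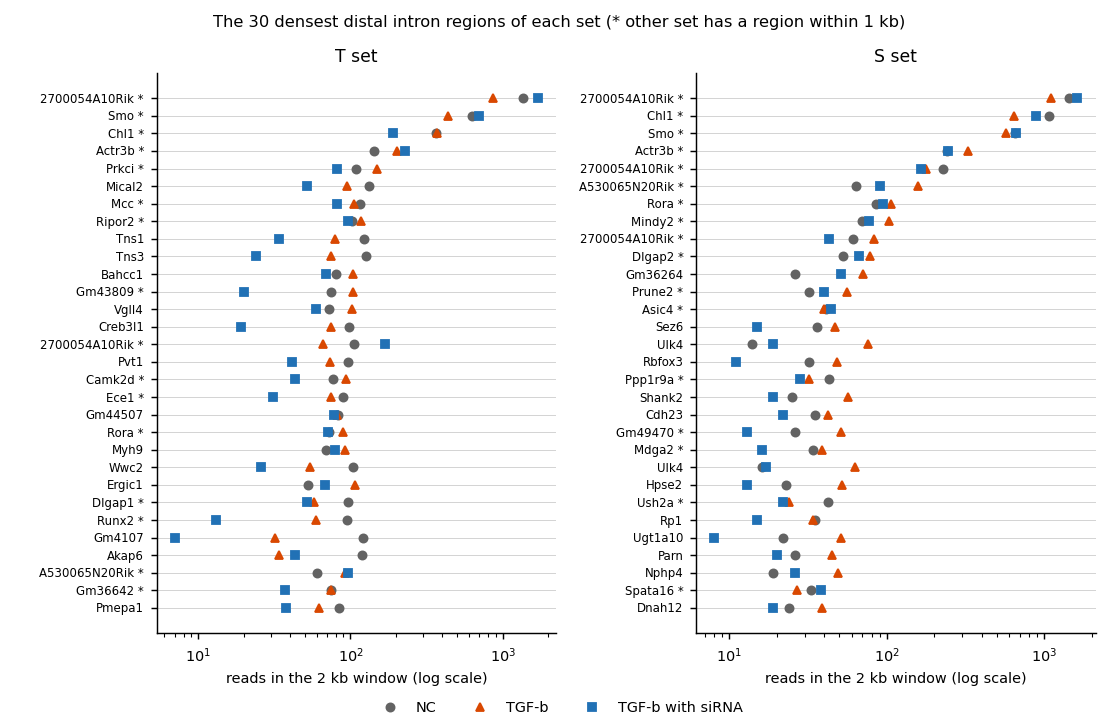
Reads in the 2 kb window, on a log axis and not rescaled, at the 30 densest distal intron regions of each set in the NC, TGF-b and TGF-b with siRNA libraries, named by host gene. An asterisk marks a region within 1 kb of one of the other set. Reads are not scaled for the depth of a library, so symbols are to be compared between regions. The 2700054A10Rik, Smo and Chl1 places stand at the right in both sets, and the Ulk4 regions hold 76 and 63 reads in TGF-b.

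The sets shared few distal intron regions. Of those called in the S set, 7.17% overlapped a T set distal intron region by at least 1 bp in NC (547 of 7630), 4.17% in TGF-b (254 of 6088) and 8.06% with siRNA and TGF-b (583 of 7234). As a share of the larger T set these were 1.47%, 1.78% and 1.49%. Over regions of all kinds 9.89%, 10.8% and 14.6% of the S set overlapped the T set, so distal introns were shared less than regions as a whole in each of the 3 conditions.

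Sharing rose with depth. S set regions with fewer than 10 reads were shared in 4.18%, 2.29% and 3.94% of cases in NC, TGF-b and siRNA with TGF-b, and those with 20 to 49 reads in 20.1%, 7.87% and 31.3%. At 50 or more reads 91.7%, 55.6% and 100% were shared, but these were only 12, 18 and 9 regions and include the places dense in all libraries. In the T set the share at 50 or more reads was 8.30%, 20.6% and 27.4%. A deep distal intron region of the T set was therefore mostly without a called S set partner at every treatment. The S set had fewer called regions, and its reads at places without a call were not examined.

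**Figure D4:**
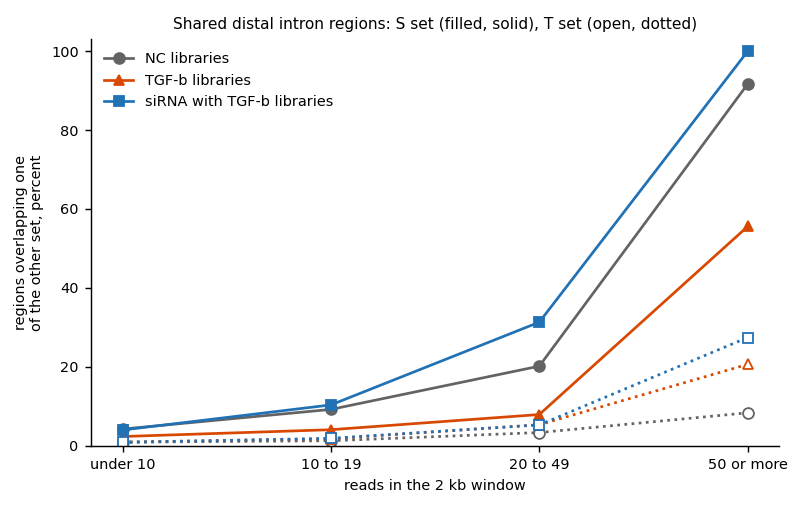
Share of distal intron regions, in percent, that overlap a region of the other set under the same treatment, by reads in the 2 kb window. Filled symbols and solid lines are S set regions, open symbols and dotted lines T set regions. At 50 or more reads the S set shares are 91.7%, 55.6% and 100% of 12, 18 and 9 regions, while the T set shares stay at or below 27.4%.

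Regions followed through all 3 libraries of a set were rarer still. In the T set 704 distal intron regions of 615 host genes were called in NC, TGF-b and siRNA alike, with medians of 30, 24 and 19 reads. Their median log2 ratios were -0.23 for TGF-b against NC and 0.09 for siRNA with TGF-b against TGF-b. Of the 704, 113 were at least 2-fold lower and 51 higher under TGF-b, where all T set regions gave 42.1% and 17.3%. With siRNA and TGF-b 86 were lower and 112 higher, where all T set regions gave 16.2% and 49.7%. A call in all 3 libraries was required, which disfavours large ratios. Of the S set 34 regions of 31 genes met the same condition, with median ratios of -0.46 and -0.05, and at most 3 of them passed 2-fold in either direction in a comparison. All S set regions gave 26.7% lower and 17.4% higher under TGF-b, then 27.8% and 15.1%. The 5 densest regions called in all 3 libraries were those of 2700054A10Rik, Smo, Chl1, Actr3b and Prkci in the T set, while those of the S set came from 2700054A10Rik (2 regions), Smo, Actr3b and A530065N20Rik.

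Most of the clearest rises and falls were regions with no read in the other library. In the T set under TGF-b, Entrep2 went from 0 to 32 reads, Gm44778 from 0 to 30, Cerk from 0 to 28 and Met, the receptor of hepatocyte growth factor, from 0 to 26. Against a floor of 3 reads per library these were at least 9.27-, 8.72-, 8.18- and 7.63-fold higher. Mir99ahg, the host transcript of a microRNA cluster, went from 2 to 54 reads, a log2 ratio of 4.29 (2.95 to 6.75).

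Falls in the same comparison included regions in receptors of the TGF-b and PDGF families. Bmpr1b, a BMP receptor, went from 65 reads to 1 at intron 2, a log2 ratio of -4.94 (-8.43 to -3.40). Pdgfrb, a receptor found on fibroblasts and mural cells, went from 39 reads to 0 at intron 1, at least 8.96-fold lower. Gm5127 (nearest TSS Cysltr1), Cnot4 and 2210408I21Rik went from 46, 43 and 42 reads to 0. Each of these falls was seen at 1 region. Another Bmpr1b region, at intron 9 (nearest TSS Unc5c), went from 3 reads to 22, a log2 ratio of 2.64 (1.35 to 4.64).

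With siRNA and TGF-b the T set rises were larger. Dock9, an exchange factor for Cdc42, went from 0 to 62 reads, at least 21.6-fold higher. Asic2, an acid-sensing channel (nearest TSS Gm11418), and Arhgap24, a GTPase-activating protein for Rac, each went from 0 to 46, at least 16.1-fold higher. Wdr7 and Cacna1a went from 0 to 39 and 37. The falls were to 0 from 36 reads at Gm35546 and Bicd2 and from 34 at Rabgap1l (nearest TSS Gpr52), Lcor and Cers6.

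S set extremes were shallower, and all these bounds rest on the authors' rescaling, which sets equal reads higher in NC than in TGF-b in the S set. Under TGF-b Lsamp (nearest TSS Gm28750) went from 0 to 22 reads, 9130221F21Rik from 0 to 21 and Esrrb, an orphan nuclear receptor, from 0 to 20, at least 3.78-, 3.61- and 3.45-fold higher. Nr2c1 (nearest TSS Ndufa12) and Gm38839 each went from 0 to 19. Tasor, a subunit of the HUSH silencing complex, fell from 21 reads to 0, at least 8.38-fold lower, and Nr3c2, the mineralocorticoid receptor (nearest TSS Gm45406), from 18 to 0. Nav3 and Mdga2 each fell from 17 reads and Mep1b from 16.

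With siRNA and TGF-b, Eya2 fell from 30 reads to 0 in the S set, at least 7.04-fold lower, and Zfp160 from 28, at least 6.57-fold lower. Lrmda (nearest TSS Gm7480), Snx9 and Katnal1 each fell from 22 reads to 0. The largest rises were from 0 to 17 at Gm16337 and to 16 at Micu3, at least 5.01- and 4.74-fold higher, and Gm37240 (nearest TSS Fhip1a), Sema3d and Nckap5 reached 15, 15 and 14. Rises in this comparison were smaller than its falls.

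Distal intron regions were spread unevenly over host genes, and a rule on distance from a TSS favours genes with long introns. In the T set TGF-b table they fell in 7621 host genes, of which 2218 had 1 region and 1327 had 10 or more. The latter held 62.3% of the regions. Csmd1, Lsamp, Fgfr2, Dlg2 and Cntnap2 had the most, at 168, 143, 137, 135 and 134, spread over 1.62, 2.18, 2.89, 1.95 and 2.23 Mb. These spans follow the transcripts that the tables name as hosts, which were not checked against another annotation. The rank of Fgfr2, whose span was the widest of these, depends on them. Csmd1, Lsamp and Cntnap2, long genes of neuronal surface proteins, also had the most in the siRNA table, at 189, 172 and 161, followed by Rbfox1 and Ptprt with 148 each. Csmd1 also led both S set tables with 65 and 55, with Cntnap2, Dpp10 and Lsamp next in the first and Lsamp, Dpp10, Cntnap2 and Ctnna3 next in the second.

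Read depth differed between lists of host genes in the T set. Of the 1792 regions in 20 long neuronal genes, 14.7% had 20 or more reads over NC and TGF-b together, against 29.0% of all distal intron regions. Of 148 regions in matrix and myofibroblast genes 58.1% did, of 134 in SRF targets and partners 52.2%, of 131 in TGF-b pathway genes 46.6% and of 237 in YAP/TAZ targets and partners 43.9%. Rbms3 alone held 106 of the 237 YAP/TAZ regions. Focal adhesion genes (184 regions, 35.9%) and cardiac fibroblast transcription factors (239, 31.4%) lay nearer the value for all. Among marker lists, fibroblast markers had this depth at 64.3% of 14 regions, endothelial markers at 48.5% of 33, cardiomyocyte markers at 34.2% of 38, mural markers at 23.1% of 13 and macrophage markers at 17.6% of 17. Against the siRNA library the order was much the same, with 38.0%, 39.7%, 31.0% and 27.3% for the first 4 of these lists and 11.98% for long neuronal genes, beside 19.9% over all. Some neighbouring regions share reads, since their windows overlap, and with 1 region per 2 kb the shares under TGF-b were 52.7% for matrix genes, 48.6% for SRF targets, 47.1% for TGF-b genes, 41.6% for YAP/TAZ targets and 13.2% for long neuronal genes.

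The S set had another order. Long neuronal genes had 20 or more reads at 39.0% of 634 regions over NC and TGF-b, beside 36.5% of all distal intron regions. YAP/TAZ targets had this at 15 of 49, SRF targets at 3 of 20, matrix genes at 2 of 20 and TGF-b pathway genes at 0 of 19. These lists hold so few S set regions that their shares have wide counting error, and Rbms3 alone held 33 of the 49 YAP/TAZ regions. The 2 regions of fibroblast markers and 4 of 6 in TET and Piezo genes had 20 or more reads.

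**Figure D5:**
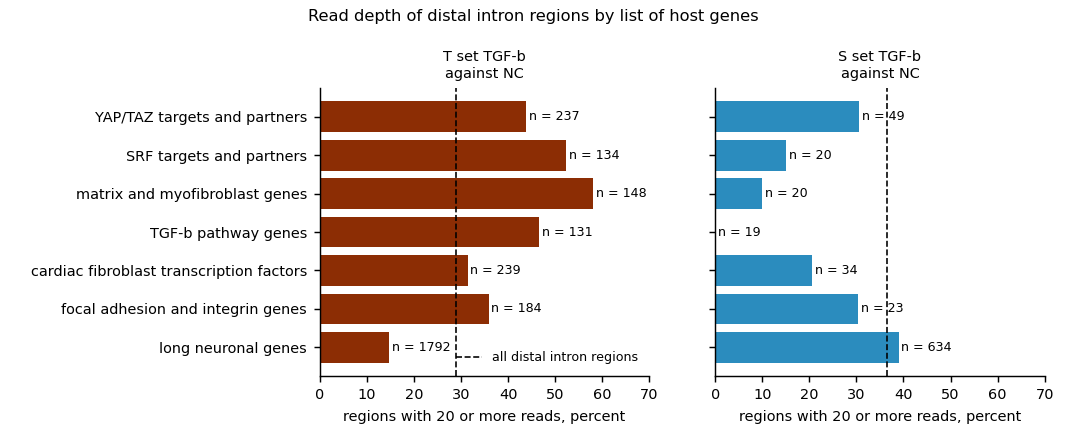
Share of distal intron regions, in percent, with 20 or more reads over NC and TGF-b together, by list of host genes, in the T set (left) and the S set (right). The dashed line is the share over all distal intron regions of the table and n the regions in a list. In the T set matrix (58.1%), SRF (52.2%), TGF-b (46.6%) and YAP/TAZ genes (43.9%) lie right of the line at 29.0% and long neuronal genes (14.7%) left of it, while in the S set long neuronal genes alone among the drawn lists lie right of the line.

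The T set lists had median ratios near that of all distal intron regions under TGF-b. The medians of the T set lists were -0.77 for YAP/TAZ genes (97 of 237 regions at least 2-fold lower, 33 higher), -0.72 for SRF genes (58 of 134 lower, 19 higher), -0.72 for matrix genes (72 of 148 lower, 16 higher) and -0.79 for TGF-b genes (57 of 131 lower, 18 higher), beside -0.77 over all distal intron regions, of which 44.2% were at least 2-fold lower and 16.8% higher. Transcription factors had -0.83, focal adhesion genes -0.71 and long neuronal genes -0.63, the last with 20.4% of regions at least 2-fold higher beside 16.8% over all. S set long neuronal genes had -0.58, with 37.4% lower and 11.4% higher, beside -0.34, 29.6% and 16.0% over all. With siRNA and TGF-b the T set list medians were 0.77, 0.71, 0.77 and 1.32 for the first 4, and 1.19, 1.03 and 1.18 for the other 3, beside 1.05 over all. Of 220 regions in YAP/TAZ targets 102 were at least 2-fold higher and 41 at least 2-fold lower, shares near the 51.6% and 15.6% of all distal intron regions.

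Members of the YAP/TAZ list with a distal intron region were 14 of 30 in the T set under TGF-b, and each gene below is shown at the densest of its regions listed in both T set tables, by density in NC and TGF-b. At these places 5 of 13 genes had an interval below 0 under TGF-b and 2 above, and with siRNA and TGF-b 4 lay below and 1 above. Taken in the same way over all 5048 host genes, 15.3% lay below and 31.1% above under TGF-b, and 34.1% below and 11.3% above with siRNA and TGF-b. Beside Vgll4, Ptpn14, a phosphatase that binds YAP, held 86, 39 and 33 reads in NC, TGF-b and siRNA at intron 18 (nearest TSS Gm37422), with a log2 ratio of -1.16 (-1.73 to -0.64) under TGF-b. Dlc1, a GTPase-activating protein, held 85, 28 and 8 at intron 4, with -1.60 (-2.24 to -1.02) and -1.22 (-2.45 to -0.24). Amotl1, an angiomotin that retains YAP and TAZ in the cytoplasm, held 50, 17 and 25 at intron 1, with -1.49 (-2.32 to -0.76) and 1.001 (0.15 to 1.90). Rbms3, an RNA-binding protein, held 78, 31 and 11 at intron 1, with -1.33 (-1.96 to -0.76) and -0.95 (-2.00 to -0.05). All 4, with Fstl1 at 62, 31 and 25 reads the fifth, had intervals below 0 under TGF-b, and with siRNA and TGF-b Amotl1 lay above 0, Dlc1 and Rbms3 below, and Ptpn14 had an interval spanning 0, at 0.24 (-0.43 to 0.90). Medians over all T set distal intron regions were -0.77 and 1.05.

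Among other members of this list Myof, a ferlin of the plasma membrane, held 64, 56 and 35 reads at intron 3. Tead1, a DNA-binding partner of TAZ, held 32, 34 and 28 at intron 1. All intervals of Myof and Tead1 spanned 0. The genes above 0 under TGF-b were Wwtr1, the gene of TAZ itself, with 0, 11 and 1 reads at intron 2, chr3:57429461-57429559, and Yap1, with 0, 7 and 0 reads at intron 5. Both regions were called in the TGF-b library alone, so the sign of their ratios largely follows the call. Another region of that Wwtr1 intron, chr3:57457931-57458007, was chosen after its values were seen and went the other way, holding 56 reads (NC) and 18 (TGF-b) at a rescaled ratio of -1.58 (-2.39 to -0.87) on the log2 scale.

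Of the SRF list 18 of 30 genes had a distal intron region in the T set under TGF-b. At the densest region listed in both T set tables, 2 of 12 genes had an interval above 0 and 4 below under TGF-b. With siRNA and TGF-b 3 lay above and 2 below. Over all host genes 31.1% lay above and 15.3% below, then 11.3% and 34.1%. Actn1, the alpha-actinin of non-muscle cells, held 80, 30 and 27 reads at intron 1 (nearest TSS Gm47767), with -1.41 (-2.04 to -0.84) under TGF-b. Fhl2, a LIM-domain cofactor, held 54, 44 and 97 at intron 5 (nearest TSS AI597479), with -0.32 (-0.89 to 0.25) and 1.61 (1.12 to 2.14). Cald1, which encodes caldesmon, held 68, 42 and 22 at intron 1. Of these 3 Fhl2 alone had an interval above 0 with siRNA and TGF-b.

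In the TGF-b list Ltbp1, which stores latent TGF-b in the matrix, held 82, 58 and 31 reads at intron 10, with -0.55 (-1.04 to -0.08) and -0.40 (-1.05 to 0.20). Ski, a repressor of SMAD signalling, held 56, 31 and 6 at intron 2, with -0.85 (-1.50 to -0.24) and -1.73 (-3.13 to -0.68). Smad3 held 31, 30 and 30 reads at intron 1. In the matrix list Loxl1, a crosslinking enzyme, held 60, 51 and 32 reads at intron 1, Fbn1, fibrillin, 45, 42 and 9 at intron 64 (nearest TSS Gm14003) and Timp3, a metalloproteinase inhibitor, 19, 26 and 43 at intron 2. Fbn1 and Timp3 parted with siRNA, at -1.63 (-2.77 to -0.74) and 1.18 (0.51 to 1.90). Of 13 genes of the TGF-b list, 2 lay above 0 and 4 below under TGF-b, then 2 above and 5 below. Of 13 genes of the matrix list, 1 lay above and 4 below, then 2 above and 3 below. The shares over all host genes are those given for the SRF list.

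Of 14 focal adhesion genes with a region listed in both T set tables, 6 had an interval above 0 under TGF-b at the densest one and none had one below, and with siRNA and TGF-b 5 were below and none above. Of 20 long neuronal genes 2 were above and 8 below under TGF-b, then none above and 9 below. Of 13 transcription factors 5 were above and 3 below, then none above and 5 below. The shares over all host genes were 31.1% above and 15.3% below under TGF-b, then 11.3% and 34.1%. A place in both tables had to be called in TGF-b or in both other libraries, which bears on these counts. Fermt2, the integrin activator kindlin-2, held 22, 46 and 30 reads at intron 12, with 1.04 (0.35 to 1.80) under TGF-b. Ctnna3, an alpha-catenin, held 32, 69 and 16 at intron 3, with 1.06 (0.48 to 1.68) and -1.56 (-2.41 to -0.86). Itgb5, an integrin subunit, held 66, 55 and 48 at intron 9 with both intervals spanning 0. Bnc2, a zinc finger factor of fibroblasts, held 76, 51 and 21 at intron 3, with -0.62 (-1.13 to -0.12) and -0.76 (-1.53 to -0.08). Runx2 and Nfib were the other transcription factors below 0 under TGF-b. Those above were Ebf1, Ebf2, Tcf4, Zeb2 and Gata6, among which Ebf1, an early B-cell factor, held 4, 22 and 11 reads at intron 8, with 2.31 (1.10 to 4.04), and Zeb2, a zinc finger repressor, held 0, 16 and 0 at intron 3. Of these, Ebf2 was called in both libraries of each comparison, and the others in TGF-b alone, where the sign largely follows the call. Piezo2, the mechanosensitive channel that the study follows, held 39, 21 and 5 at intron 3, with -0.84 (-1.63 to -0.12) and -1.41 (-2.97 to -0.25). The medians over all T set distal intron regions were -0.77 and 1.05. In the S set a Piezo2 region at intron 52 held 7, 15 and 6 reads, with 0.43 (-0.73 to 1.78) and -1.09 (-2.54 to 0.10).

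The cell type on the labels was looked for at promoters of marker genes. Of 8 fibroblast markers 3 had a promoter region in each T set table (Dcn, Ddr2 and Vim, then Col1a1, Pdgfra and Vim) and none had one in the S set tables. Cardiomyocyte markers had promoter regions for 4 and 5 of 8 in the T set and for 1 and 3 of 8 in the S set, endothelial markers for 4 and 2 and for 1 and 1 of 8, mural markers for 1 and 0 and for 2 and 2 of 6, and macrophage markers for 0 of 7 in each table. In distal introns the fibroblast marker Ddr2, a collagen receptor, held 56, 16 and 13 reads in the T set at intron 2, and Pdgfra 15, 11 and 14 at intron 16. Markers of other cell types had such regions too. The endothelial markers Tek and Flt1 held 36, 30 and 4 and 33, 9 and 26 reads, each at intron 1, and the cardiomyocyte marker Ryr2 27, 14 and 25 at intron 3. These tables list where reads gathered and not expression. The part of other cell types in the distal intron values was not tested.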

How the data were processed

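CUT&Tag was done in 6 libraries, 1 for each of 3 treatments in a T set and an S set. The study's methods give Bowtie2, GRCm39 and a peak caller. The submitters' processing notes list BWA 0.7.12 and mm10, but gene coordinates in the tables are those of GRCm39. Each of 4 tables deposited by the authors lists the regions called in either of 2 libraries, with the read density of each library as a signal rescaled between those libraries. Columns of the authors' own comparison (a log2 fold change and p-values) were not used, and 0 columns of values were left unmapped.

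A density was found to equal the reads plus 1, divided by a 2 kb window, on a straight line between the libraries. Whole reads were recovered to within 0.1 read for all distal intron regions. Python 3.11.15, numpy 2.4.6, pandas 2.3.3 and scipy 1.17.1 were used, and the scripts were tested on simulated data. The ratio was the log2 of the later density over the earlier. Higher or lower means at least 2-fold. Region intervals are 95% Wilson limits of the split of reads between the libraries, and reads of different molecules cannot be told from copies, so intervals and floors cover counting error only. A fold against 0 reads used a floor of 3 reads per library. With 1 library per group no test was made.

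Host genes come from the annotation column. Of 9169 host genes 8928 were named by the tables, 237 by GENCODE and 4 not at all. The first and last bases are printed as in the tables, whose counting base is not stated. No sequence is shown, since the genome at hand was of another build.

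Named genes were, per table, the 10 with the densest region and the 5 regions with the clearest rise and the 5 with the clearest fall by counting limit. Further ones were, per set, the 5 genes with most regions and the densest region of each listed gene. The members and lists were chosen with earlier results of these data known. Further dense places, those dense in all libraries among them, were picked after their values were seen. Alternatives were another scaling, floor, distance, depth, overlap and call, with their effect given at the end. Of the listed genes a selection is printed, and some genes are not reported here.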

Additional observations from a re-analysis of the deposited data

Results flagged for a closer look

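With siRNA added to TGF-b, T set distal intron regions had a median log2 ratio of 1.05 and S set ones a median of -0.186. The medians of the sets thus had opposite signs. This difference was not tested because a group holds 1 library, and the labels name a different siRNA in each set. After centring on the overall median of each table, the T set median was 0.076 and the S set median 0.026, so the signs no longer differed.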

How the results depend on the processing

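Values below are in the order T set and S set for TGF-b against NC, then T set and S set for siRNA with TGF-b against TGF-b. Among the values that answer a comparison, 34 stayed within counting error, 71 moved and 2 changed sign, and the cause was not tested. After centring each table on its overall median, the medians were -0.12, -0.14, 0.076 and 0.026, the last with its sign changed. The shares at least 2-fold higher were then 25.1%, 19.7%, 30.3% and 22.1%, and lower 28.6%, 24.2%, 27.0% and 22.9%. With the authors' rescaling left out, medians of -0.87, 0.23, 0.59 and -0.26 were found, the S set value under TGF-b with its sign changed. The shares higher were 16.0%, 29.4% and 43.4% in the first 3, and lower 48.7%, 17.4%, 20.4% and 31.6%. When any count below the floor of 3 was raised to it, the T set medians were -0.48 and 0.76, the shares higher 13.6%, 10.1%, 43.1% and 14.1%, and lower 30.5%, 28.8%, 6.91% and 24.95%. Among regions called in both libraries the first 3 medians were -0.25, -0.31 and 0.14, the shares higher 7.27%, 0.807%, 18.4% and 2.26%, and lower 16.98%, 8.87%, 10.3% and 7.52%. Above the median density, 10.8%, 9.02%, 52.8% and 9.71% were higher and 42.7%, 25.5%, 9.06% and 21.7% lower. Beyond 50 kb, 17.6%, 14.3%, 53.2% and 15.7% were higher, 28.5% were lower in the last comparison, and the siRNA medians were 1.16 and -0.24. With 1 region per 2 kb, the T set shares higher were 17.5% and 52.1%, and 16.0% were lower with siRNA. At a 4-fold threshold 10.5%, 4.58%, 30.2% and 4.37% were higher and 22.4%, 9.20%, 9.69% and 9.24% lower. At an overlap of 50%, the S set shares shared with the T set were 5.10%, 2.78% and 5.79%. Leaving out regions of 500 or more reads, an alternative chosen after seeing the data, moved none of these. Among the values for gene lists 2 moved, both with the nearest-TSS gene in place of the host gene, where 14 stayed: 49.6% for matrix genes under TGF-b and 10.5% for long neuronal genes with siRNA, in the T set.

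No paired analysis was possible because each group has 1 library and no test was made. Depth limits single regions: 51.5% and 59.8% of T set regions had 3 or fewer reads in a library of the comparison.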
